A study of Homo sapiens with 7 samples.

Results

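METRN, PITX1, CTSZ and EMP3 are 4 genes, of 15659 gene symbols counted, that had more reads in HCT116 cells given miR-148a-3p than in cells given a control miRNA. They were chosen by these same measured values: each was picked because all 3 miR-148a-3p libraries lay above all 3 control libraries. Their fold changes are therefore given as a description and carry no test, and the tests below concern other genes only. All 4 were among the 8921 genes that passed the filter on low counts. METRN was over the filter's level of counts in 2 of 3 control libraries and in 3 of 3 miR-148a-3p libraries, so the group where it is high helped to bring it in. The other 3 were over it in all 6 libraries.

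HCT116 is a human colorectal carcinoma line, and both groups carry a knockout of DROSHA, the nuclear RNase that starts microRNA maturation, so the control cells lack it too. One group was transfected with an unspecified control miRNA and the other with miR-148a-3p, with 3 libraries each, and RNA was taken 48 h later. Reads were primed by oligo-dT at the 3' ends of polyadenylated RNA, so levels were not divided by transcript length. The labels do not say how the knockout was made, whether the line is 1 clone, or whether replicates were separate cultures. Where a p is given, it therefore reflects how these libraries vary, and that variation may be technical.

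The libraries held 630142 to 1564125 counts over 12448 to 13849 genes, the highest total and gene number in miR-148a-3p replicate 1 and the lowest in miR-148a-3p replicate 3. Control replicate 1 (−31.4) and miR-148a-3p replicate 3 (34.2) were at the ends of the first principal component of log2 levels, which held 29.8% of the variance, and the other libraries lay between −8.29 and 13.1. DROSHA had 31, 16 and 16 reads in controls and 20, 15 and 13 in treated libraries, and reads near its 3' end do not check the knockout. Of 16 colon epithelium markers 9 were listed in at least 1 library, with a sum of 1686 to 1935 CPM (reads scaled to a common library size) in controls and 1622 to 1752 CPM in treated libraries. Most of these reads were of the keratins KRT18 (6408 over the 6 libraries) and KRT19 (2709). VIL1, FABP1 and LGALS4 had only 3, 4 and 1 reads over the 6 libraries. The 5 tested had overlapping groups and 0 were called by edgeR (lowest adjusted p = 0.626). KRT8, 1 of the 5, had an unadjusted p below 0.05, beside 606 of all 8921 tested genes. The log2 fold changes of the 5, miR-148a-3p over control, were 0.26 for EPCAM (SE 0.41), 0.08 for KRT19 (SE 0.17), −0.15 for KRT18 (SE 0.16), −0.55 for KRT8 (SE 0.21) and −0.68 for CDX2 (SE 0.36). The differentiated colon markers KRT20, MUC2, TFF3 and CDX1 were not listed in any library, and neither were LGR5, GPA33 and CEACAM5.

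A microRNA guides Argonaute proteins to messenger RNAs that pair with its seed, bases 2 to 8, and those messengers are usually repressed, so direct targets are known to go down. The 4 genes described here were higher, and whether their messengers hold sites for this seed was not examined. The transfected strand is shown with its seed in capitals, as RefSeq gives it for GRCh38.p14 (chromosome 7, minus strand, 25949922 to 25949943):
miR-148a-3p: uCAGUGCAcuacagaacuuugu

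The 4 products are not related to one another. METRN encodes meteorin, a secreted protein known for glial differentiation and axon growth. PITX1 encodes a paired-class homeodomain factor that specifies hindlimb and pituitary and binds a TAATCC core. CTSZ encodes cathepsin Z, a lysosomal cysteine carboxypeptidase. EMP3 encodes a small membrane protein with 4 membrane spans, of the PMP22 and claudin-like family, known for silencing by promoter methylation in gliomas.

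The sequence around each start is shown as a description, from 250 bases before it to 50 after, 5' to 3' on the gene's own strand (RefSeq, GRCh38.p14). METRN starts on the plus strand of chromosome 16 (714868 to 715167), PITX1 on the minus strand of chromosome 5 (135034179 to 135034478), CTSZ on the minus strand of chromosome 20 (59007205 to 59007504), and EMP3 on the plus strand of chromosome 19 (48325302 to 48325601, the more upstream of its listed starts). The start used for PITX1 lies inside the gene's annotated span, so its window does too. Capitals mark matches to any of the motifs searched on both strands, which were the GC box GGGCGG, the motif CCAAT, the motif TATAAA of many core promoters, the PITX1 core TAATCC, and the E-box CACGTG found in many lysosomal genes:
METRN: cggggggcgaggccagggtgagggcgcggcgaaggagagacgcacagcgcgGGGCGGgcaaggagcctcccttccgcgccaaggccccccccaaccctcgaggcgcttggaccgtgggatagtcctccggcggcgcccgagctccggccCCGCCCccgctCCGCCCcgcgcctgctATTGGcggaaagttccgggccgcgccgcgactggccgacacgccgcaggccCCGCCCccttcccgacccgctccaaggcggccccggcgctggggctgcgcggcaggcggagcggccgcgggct
PITX1: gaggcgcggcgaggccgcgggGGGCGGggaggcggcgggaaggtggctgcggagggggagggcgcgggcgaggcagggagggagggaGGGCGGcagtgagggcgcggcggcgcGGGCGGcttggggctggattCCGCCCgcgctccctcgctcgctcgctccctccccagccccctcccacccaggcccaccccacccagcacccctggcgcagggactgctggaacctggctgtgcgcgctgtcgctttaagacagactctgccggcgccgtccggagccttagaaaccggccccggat
CTSZ: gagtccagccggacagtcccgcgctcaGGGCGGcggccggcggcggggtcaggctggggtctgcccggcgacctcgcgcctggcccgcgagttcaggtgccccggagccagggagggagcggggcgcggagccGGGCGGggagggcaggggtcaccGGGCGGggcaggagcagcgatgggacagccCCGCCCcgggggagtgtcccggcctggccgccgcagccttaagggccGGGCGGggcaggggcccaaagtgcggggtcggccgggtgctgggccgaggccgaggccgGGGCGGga
EMP3: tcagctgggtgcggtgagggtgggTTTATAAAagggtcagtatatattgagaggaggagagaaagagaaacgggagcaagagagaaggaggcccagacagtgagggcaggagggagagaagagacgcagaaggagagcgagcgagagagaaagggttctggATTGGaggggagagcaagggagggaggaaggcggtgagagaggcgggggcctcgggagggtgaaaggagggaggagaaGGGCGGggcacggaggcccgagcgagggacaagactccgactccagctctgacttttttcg

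The windows of METRN, PITX1 and CTSZ were alike in composition, and that of EMP3 differed from them. GC content was 79.7% for METRN, 77% for PITX1 and 81% for CTSZ, at the 95.4th, 89.6th and 97.2th percentile of the 7384 tested genes with a window. EMP3 had 59.3%, at the 25.7th percentile. The GC box matched 4 times in METRN, 4 in PITX1, 6 in CTSZ and 1 time in EMP3, and 73.4% of the tested genes' windows hold at least 1 (45.0% of all 35116 windows). CCAAT was in the METRN and EMP3 windows and in 37.7% of those of tested genes. The TATAAA letters, read on both strands with overlap, were found in EMP3 alone of the 4, and in 4.93% of tested genes. In EMP3 they lie near the upstream end of the window, far from the start. TAATCC and CACGTG were in none of the 4, and in 4.12% and 10.6% of tested genes. No match says only that these letters are not in this window.

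METRN had the highest fold of the 4. Control replicates 1 to 3 held 10, 16 and 16 METRN reads, and treated replicates 1 to 3 held 51, 59 and 29. After TMM scaling this was 9.63, 18.7 and 18.2 CPM against 33.6, 69.8 and 47.7 CPM. The lowest treated library was 1.80 times the highest control library. The means were 15.5 ± 5.09 and 50.4 ± 18.2 CPM (SD, n = 3), a ratio of 3.25 and a fitted log2 fold change of 1.69 (standard error, SE, 0.38). It lay between 1.37 and 1.94 when any 1 library was left out.

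PITX1 was less spread in relation to its level. Controls held 45, 55 and 47 reads of it, and treated libraries 118, 111 and 79. On the TMM scale these were 43.3, 64.2 and 53.5 CPM against 77.8, 131 and 130 CPM. Treated replicate 1 was the nearest to the controls, at 1.21 times the highest of them. The means were 53.7 ± 10.4 and 113 ± 30.6 CPM (SD, n = 3), a ratio of 2.11. The fitted log2 value was 1.06 (SE 0.26), and 0.91 to 1.29 with 1 library left out.

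CTSZ had the narrowest treated group. Controls held 57, 71 and 39 reads, and treated libraries 168, 105 and 78, or 54.9, 82.8 and 44.4 CPM against 111, 124 and 128 CPM. Here the spread lay in the control group, whose replicate 2 was the highest. The means were 60.7 ± 19.9 and 121 ± 9.24 CPM (SD, n = 3), a ratio of 2.00. The fitted log2 value was 0.99 (SE 0.25), and 0.82 to 1.27 with 1 library left out.

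EMP3 rested most on a single library. Controls held 16, 20 and 22 reads, and treated libraries 44, 87 and 33, which is 15.4, 23.3 and 25.03 CPM against 29.0, 103 and 54.3 CPM. The treated libraries thus ran from just above the controls to far above them. The means were 21.3 ± 5.13 and 62.1 ± 37.6 CPM (SD, n = 3), with a ratio of 2.92 and a log2 fold change of 1.52 (SE 0.39). Without miR-148a-3p replicate 2 the log2 fold change was 0.92, and without miR-148a-3p replicate 1 it was 1.91. Every library was also thinned to 630142 counts, in a single random draw. The lowest treated value (23.2 CPM) then lay below the highest control value (27.7 CPM), so the groups of EMP3 overlapped. Those of METRN, PITX1 and CTSZ did not, and other draws were not made.

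**Figure D1:**
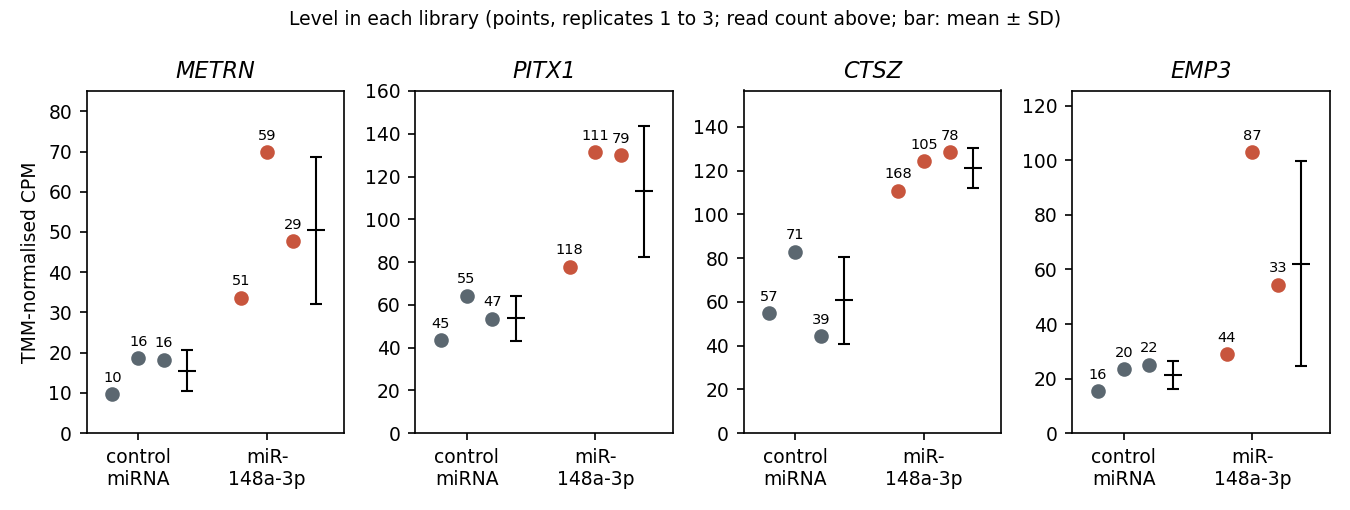
TMM-normalised CPM of METRN, PITX1, CTSZ and EMP3 in each library (points, replicates 1 to 3 from left to right in each group, with the read count above each point) and the mean ± SD of each group (bars, n = 3). Every miR-148a-3p point lies above every control point, by the rule that chose the genes, and treated replicate 1 is the lowest treated point in all 4 panels.

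Counting error alone was wide at these depths. The 95% Wilson interval of the METRN share was 5.08 to 17.2 CPM in control replicate 1 and 24.8 to 42.9 CPM in miR-148a-3p replicate 1. For each of the 4 genes, the interval of miR-148a-3p replicate 1 reached below the upper bound of the highest control library: 24.8 against 29.7 CPM for METRN, 63.0 against 81.7 CPM for PITX1, 92.3 against 102 CPM for CTSZ, and 21.0 against 37.4 CPM for EMP3. Reads were not collapsed to molecules, so the intervals cover counting error only, and in bulk RNA fewer expressing cells and less RNA per cell cannot be told apart.

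The order of the 4 levels was the same in both groups. METRN was lowest, then EMP3, PITX1 and CTSZ. The library ranges of METRN and EMP3 overlapped in both groups, and so did those of PITX1 and CTSZ. EMP3 lay below PITX1 without overlap in controls and with overlap in treated libraries. Because each transcript is read near its 3' end, these levels between genes are per transcript end and not per length. The spread between replicates, as the pooled SD of log2 CPM within groups, was 0.49 for METRN, 0.36 for PITX1, 0.32 for CTSZ and 0.67 for EMP3. Among tested genes of similar mean level (10 bins), these stood at the 74.7th, 69.6th, 69.8th and 96.97th percentile, against medians of 0.39, 0.30, 0.27 and 0.37. EMP3 was thus among the more variable genes of its level.

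The 4 genes shared their lowest treated library but not their lowest control library. Treated replicate 1, the most deeply sequenced library, was the lowest treated library for all 4. Treated replicate 2 was the highest for METRN, PITX1 (131 CPM, beside 130 in replicate 3) and EMP3, and treated replicate 3 for CTSZ. Control replicate 1 was the lowest control library for METRN, PITX1 and EMP3, and control replicate 3 for CTSZ. Over the 6 libraries, centred profiles were closest between METRN and EMP3, with a root mean square difference of 0.26 on the log2 scale, and farthest between CTSZ and EMP3, at 0.58.

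METRN and EMP3 were among the highest by fold, PITX1 and CTSZ less so. Of the 8921 tested genes, 6.22% had every miR-148a-3p library above every control library, 555 in all, and 6.59% had every one below, 588 in all. The 4 genes were picked from the first of these sets. Among the 551 of them with a mean of at least 10 CPM, ranked by log2 fold change, METRN ranked 1 and EMP3 5, while PITX1 ranked 46 and CTSZ 61. FAM171A2 (1.61, SE 0.46) came next below METRN. TM9SF1 (1.54, SE 0.55) and EGFL7, which encodes a secreted endothelial factor (1.46, SE 0.49), stood on either side of EMP3. PITX1 stood between TXLNA (1.06, SE 0.29) and CCDC124 (1.06, SE 0.32), and CTSZ between ZNF672 (1.00, SE 0.51) and TKFC (0.99, SE 0.47). FAM171A2, TM9SF1 and EGFL7 had control means of 5.96 to 10.0 CPM and wider errors than the 4 genes. Those means are under the filter's level of 11.3 CPM, so the treated group, where they are high, helped to bring them in.

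By edgeR's quasi-likelihood test over all genes, with a Benjamini-Hochberg adjusted p below 0.05 as the threshold, 0% of genes were called higher and 0.0112% lower, which is 1 gene, MORF4L1. At an unadjusted p below 0.05 edgeR had 303 genes higher and 303 lower. At that p, DESeq2 had 222 and limma-voom 306 genes higher. After adjustment each called 0 higher, and they called 2 and 3 genes lower. Without control replicate 1, edgeR called 4 genes higher and 22 lower.

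**Figure D2:**
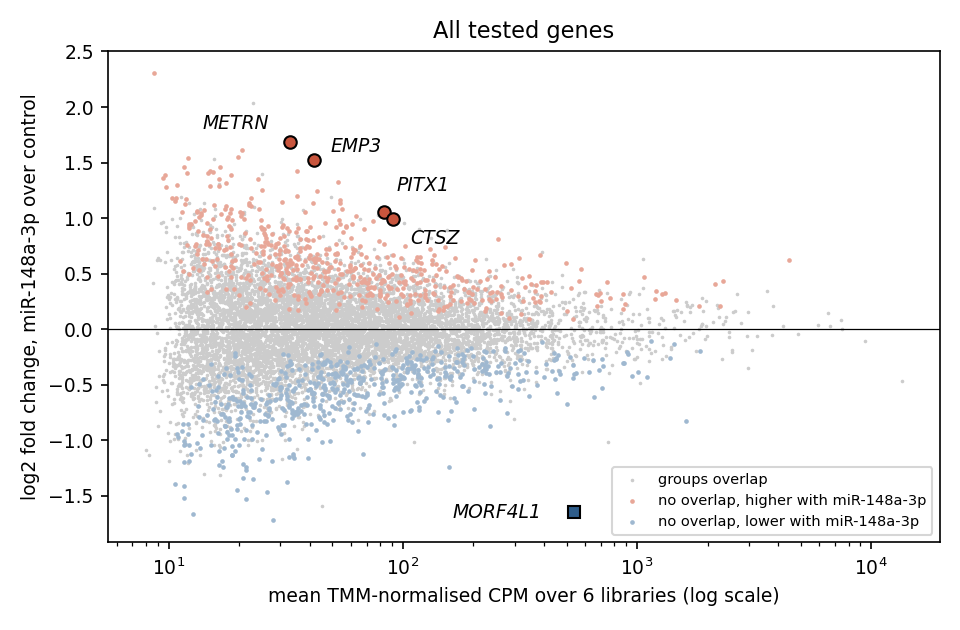
Log2 fold change of miR-148a-3p over control against mean TMM-normalised CPM (log scale) for 8921 tested genes. Pink and blue points are genes whose groups do not overlap, higher (555) or lower (588) with miR-148a-3p; the 4 genes (red circles) lie at 0.99 to 1.69, and MORF4L1 (square) is the 1 gene called.

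No gene related to METRN was called. A list of neurotrophic factors, their receptors and the JAK and STAT3 signalling that meteorin is known to use held 27 genes, of which 11 were tested. With edgeR 0 were called (lowest adjusted p = 0.681) and 1 of 11 had an unadjusted p below 0.05, beside 606 of all 8921. DESeq2 and limma-voom called 0. In 0 of 11 was every treated library above every control library, and in 3 of 11 (27.3%) every one lay below, beside 6.22% and 6.59% of all tested genes. These were JAK1, a cytokine receptor kinase (134 ± 16.8 and 93.1 ± 17.6 CPM, SD, n = 3, log2 fold change −0.51, SE 0.22), IL6ST, the shared receptor subunit gp130 (−0.32, SE 0.27), and the neurotrophin BDNF (−0.28, SE 0.28). METRNL, which encodes the closest relative of meteorin, was at 91.9 ± 39.6 and 119 ± 32.6 CPM (0.37, SE 0.27), with overlapping groups. MANF, an endoplasmic reticulum protein with neurotrophic activity, had 0.31 (SE 0.20). The median of the list was −0.18, against −0.0039 for all tested genes, and 0.03 without miR-148a-3p replicate 1.

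The homeobox list, with reported PITX1 targets, had 18 tested genes of 34. With edgeR 0 were called (lowest adjusted p = 0.593) and 2 of 18 had an unadjusted p below 0.05, beside 606 of all 8921. DESeq2 and limma-voom called 0. OTX1, a factor that also binds the TAATCC core, was at 20.04 ± 7.15 and 15.9 ± 4.73 CPM (SD, n = 3, log2 fold change −0.30, SE 0.45). HOXB7 (117 ± 8.60 and 170 ± 14.3 CPM, 0.54, SE 0.20) and TGIF1, a TALE-class repressor (0.64, SE 0.29), were the 2 of 18 (11.1%, beside 6.22% of all tested genes) whose treated libraries all lay above the controls, and 0 of 18 lay all below. CDX2, the intestinal homeobox factor, had −0.68 (SE 0.36) and HOXC6 0.68 (SE 0.38), both with overlap. The median was −0.10, and 0.10 without control replicate 1.

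No lysosomal gene was called, and no other gene tested in the list had a log2 value as high as that of CTSZ, which was chosen for being high. Of 50 cathepsins, cystatins, hydrolases and lysosomal membrane and transport genes, 41 were tested. Their median log2 fold change was −0.04 (0.04 without control replicate 1), with 19 fitted values above 0 and 22 below. With edgeR 0 were called (lowest adjusted p = 0.640) and 2 of 41 had an unadjusted p below 0.05, beside 606 of all 8921. DESeq2 and limma-voom called 0. The abundant proteases CTSB (463 ± 62.9 and 460 ± 67.4 CPM, SD, n = 3) and CTSD (313 ± 162 and 260 ± 42.7 CPM) and the protease CTSL (35.5 ± 12.7 and 40.2 ± 13.0 CPM) had overlapping groups. CTSH, an aminopeptidase, was the 1 gene of the list with all treated libraries above the controls (0.33, SE 0.47), which is 2.44% beside 6.22% of all tested genes. The 4 with all treated libraries below, 9.76% beside 6.59% of all tested genes, included PSAP, the precursor of the saposins (614 ± 58.2 and 450 ± 72.9 CPM, −0.44, SE 0.18), MANBA, a mannosidase (−0.78, SE 0.38), and ATP6V1H, a proton pump subunit (−0.62, SE 0.35). M6PR, a receptor that carries hydrolases to lysosomes, had 0.45 (SE 0.24).

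The family of EMP3 likewise had no called gene. Of 33 relatives, claudins, tetraspanins and reported partners, 24 were tested. With edgeR 0 were called (lowest adjusted p = 0.649) and 3 of 24 had an unadjusted p below 0.05, beside 606 of all 8921. DESeq2 and limma-voom called 0. EMP1 was at 305 ± 85.7 and 255 ± 29.3 CPM (SD, n = 3), EMP2 at 81.1 ± 13.1 and 73.9 ± 13.9 CPM, and PMP22, the myelin protein of the family, at 121 ± 18.0 and 94.7 ± 8.65 CPM. Their log2 fold changes were −0.25 (SE 0.20), −0.13 (SE 0.24) and −0.35 (SE 0.22), and PMP22 was lower in all treated libraries. CLDND1 (−0.65, SE 0.30) and EGFR (−0.28, SE 0.22) were the other 2 of that kind. CD81, a tetraspanin (290 ± 72.5 and 402 ± 26.4 CPM, 0.47, SE 0.19), and FLOT1, a lipid raft scaffold (0.65, SE 0.38), were higher in all treated libraries. Thus 3 of 24 (12.5%) lay all below and 2 of 24 (8.33%) all above, beside 6.59% and 6.22% of all tested genes. TGFBR2, a TGF-beta receptor, had −0.996 (SE 0.46) with overlap. The median was −0.04, and −0.12 without control replicate 1.

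**Figure D3:**
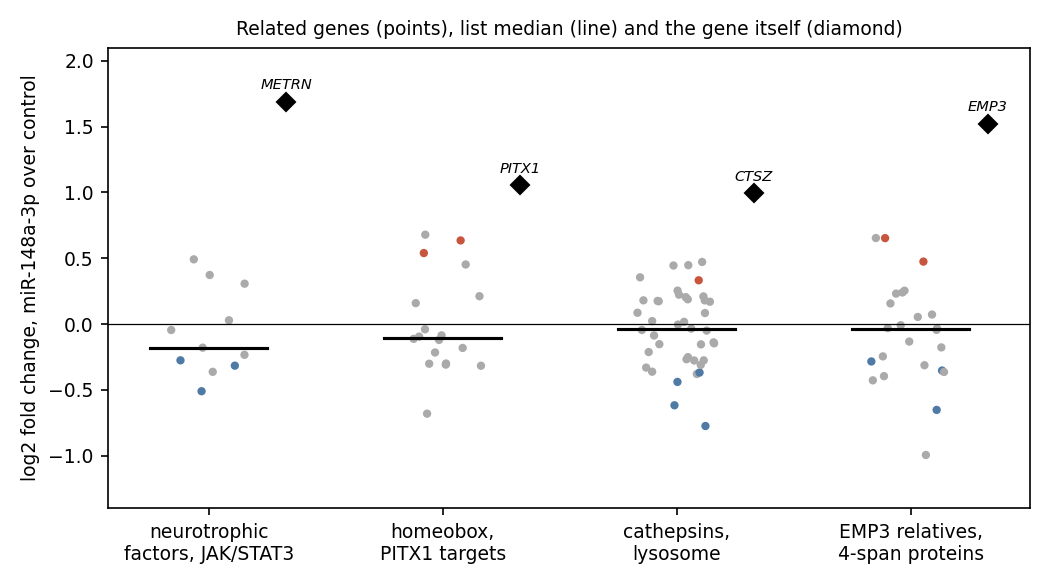
Log2 fold changes of the tested genes in the lists for METRN (11 genes), PITX1 (18), CTSZ (41) and EMP3 (24), with red and blue points for genes whose treated libraries all lay above or all below the controls, a line at each list's median (−0.18, −0.10, −0.04 and −0.04) and a diamond for the gene itself. No point of a list reaches the diamond beside it; the diamonds were chosen for being high.

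Position was not used to choose the genes, and they lie on 4 chromosomes: METRN at 715118 to 719655 on chromosome 16, PITX1 at 135027734 to 135034789 on chromosome 5, CTSZ at 58995185 to 59007254 on chromosome 20 and EMP3 at 48325552 to 48330553 on chromosome 19. The neighbourhood of METRN held other genes that were higher with miR-148a-3p in value. Of 14 tested genes within 100 kb, 4 had all treated libraries above all controls (28.6%, beside 6.22% of all tested genes and 8.75% on chromosome 16) and 0 had all below. Their median log2 fold change was 0.40, and 0.21 to 0.46 with 1 library left out. The 4 with all treated libraries above are short, each with a span under 10460 bases. Among all tested genes of 96 to 10460 bases, 9.32% were of that kind and the median log2 fold change was 0.10. The part of gene span in the values of these neighbours was not tested. With edgeR 0 of the 14 were called (lowest adjusted p = 0.398). ANTKMT, MCRIP2 and RPUSD1, 3 of the 14, had an unadjusted p below 0.05, beside 606 of all 8921 tested genes. MCRIP2, 1 of the 4, had a control mean of 6.48 CPM, under the filter's level of 11.3 CPM. It was thus tested only through the treated group, where it is high.

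ANTKMT, which encodes a mitochondrial lysine methyltransferase, begins 1491 bases beyond the METRN span on the same strand. It was at 13.3 ± 1.57 and 34.6 ± 10.7 CPM (SD, n = 3), which is 1.35 in log2 (SE 0.40, edgeR adjusted p = 0.398). MCRIP2 was at 6.48 ± 0.70 and 17.5 ± 2.91 CPM (1.41, SE 0.54, edgeR adjusted p = 0.604). The pseudouridine synthase domain gene RPUSD1 (0.74, SE 0.32) and the mitochondrial GTPase gene RHOT2 (0.42, SE 0.29) were the other 2. HAGHL (−0.05, SE 0.53), FBXL16 (0.48, SE 0.27) and CIAO3 (−0.47, SE 0.51), which lie nearer to METRN than those 3, had overlapping groups.

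EMP3 and CTSZ had fewer tested neighbours. TMEM143, which lies 1803 bases from EMP3 on the opposite strand, was at 8.29 ± 2.43 and 16.1 ± 3.35 CPM (SD, n = 3, log2 fold change 0.91, SE 0.53, edgeR adjusted p = 0.758). Its control mean was also under the filter's level of 11.3 CPM, so the treated group brought it in. KDELR1, the receptor that retrieves endoplasmic reticulum proteins, had 0.14 (SE 0.16), GRIN2D 0.36 (SE 0.38) and CARD8 −0.05 (SE 0.34). NELFCD, a transcription elongation factor gene on the opposite strand, ends 72 bases from the end of CTSZ. It was at 47.8 ± 9.96 and 55.0 ± 16.1 CPM (0.23, SE 0.29). ATP5F1E, PRELID3B and GNAS, also near CTSZ, had −0.14 (SE 0.17), −0.02 (SE 0.26) and −0.03 (SE 0.16). No gene within 100 kb of PITX1 was tested. The noncoding gene PITX1-AS1, on the opposite strand, was not listed in any library. It begins at 135033274 and overlaps the PITX1 span only at the end where PITX1 starts. The 3' end of PITX1, at 135027734, where its reads were primed, lies outside the overlap. Whether counting used strand is not given in the sources used here, so only reads inside the overlap cannot be told apart.

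**Figure D4:**
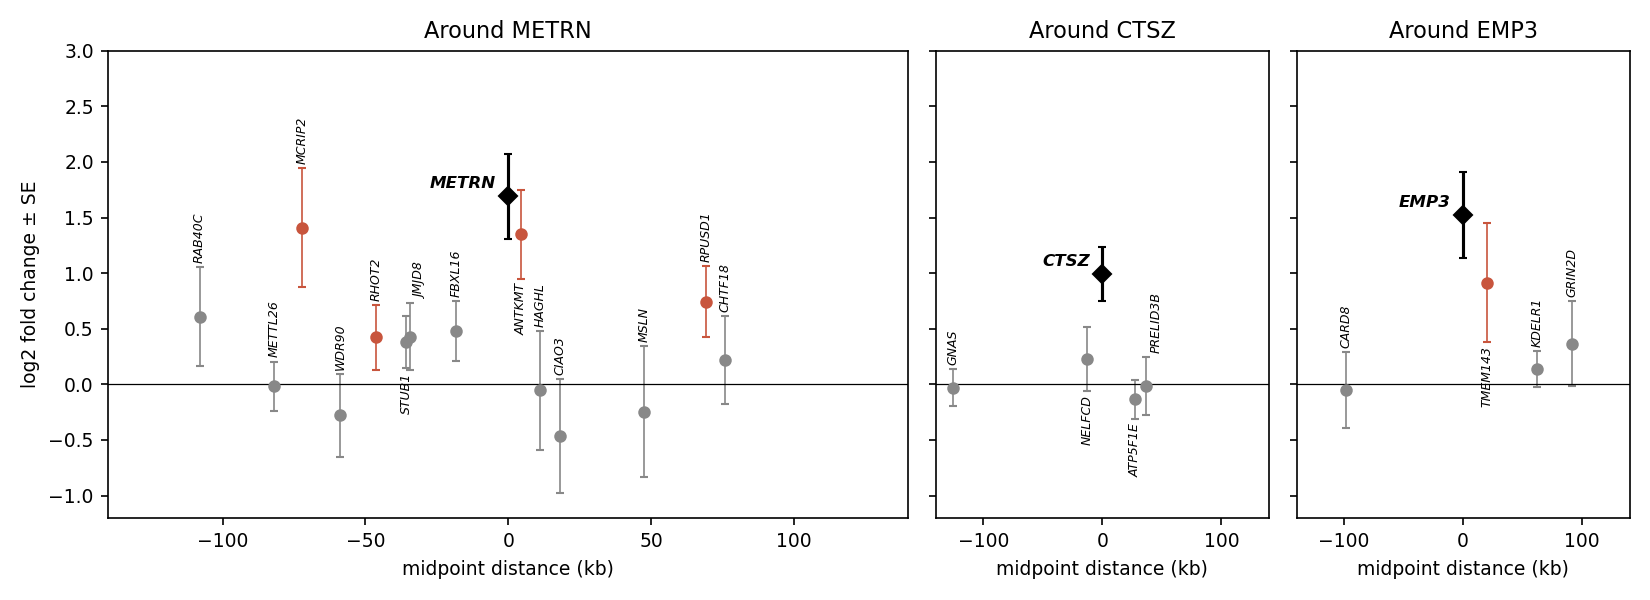
Log2 fold change ± SE of tested genes within 100 kb of METRN (14 genes), CTSZ (4) and EMP3 (4), by the distance between gene midpoints in kb, with the chosen gene as a black diamond. Red marks genes whose treated libraries all lay above the controls: ANTKMT, MCRIP2, RPUSD1 and RHOT2 around METRN and TMEM143 around EMP3.

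The 4 genes are short. METRN spans 4538 bases, EMP3 5002, PITX1 7056 and CTSZ 12070, against a median of 32480 over the 8912 tested genes with a span, at the 7.71th, 8.84th, 13.3th and 23.0th percentile. Over all tested genes the median fold change declined with span. In the quintile of genes with the shortest spans the median log2 fold change was 0.10, and it declined over the next quintiles to 0.04, 0.01, −0.06 and −0.10. Treated libraries all lay above the controls for 9.32% of the shortest quintile and 3.08% of the longest. By contrast, medians over quintiles of promoter GC content stayed between −0.03 and 0.01, and over quintiles of mean level between −0.03 and 0.0032. METRN, EMP3 and PITX1 are in the shortest quintile and CTSZ is in the next.

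Short against long genes also differed between libraries. The mean centred log2 level of the shortest quintile minus that of the longest was −0.24, 0.0060 and −0.05 in controls and 0.05, 0.13 and 0.10 in treated libraries, so the groups did not overlap. Control replicate 1, the lowest by this measure, was also the lowest control library for METRN, PITX1 and EMP3, and treated replicate 2, the highest, was the highest for the same 3. For PITX1 its lead was small, 131 against 130 CPM in treated replicate 3. Chromosome 19, where EMP3 lies, had the highest median log2 fold change of 23 chromosomes (0.18, 547 tested genes), a median span of 15892 bases, and 15.5% of its genes with all treated libraries above the controls. Chromosomes 16, 20 and 5 had medians of 0.04, 0.0038 and −0.07. The part of gene span or chromosome in the values of the 4 genes was not tested.

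**Figure D5:**
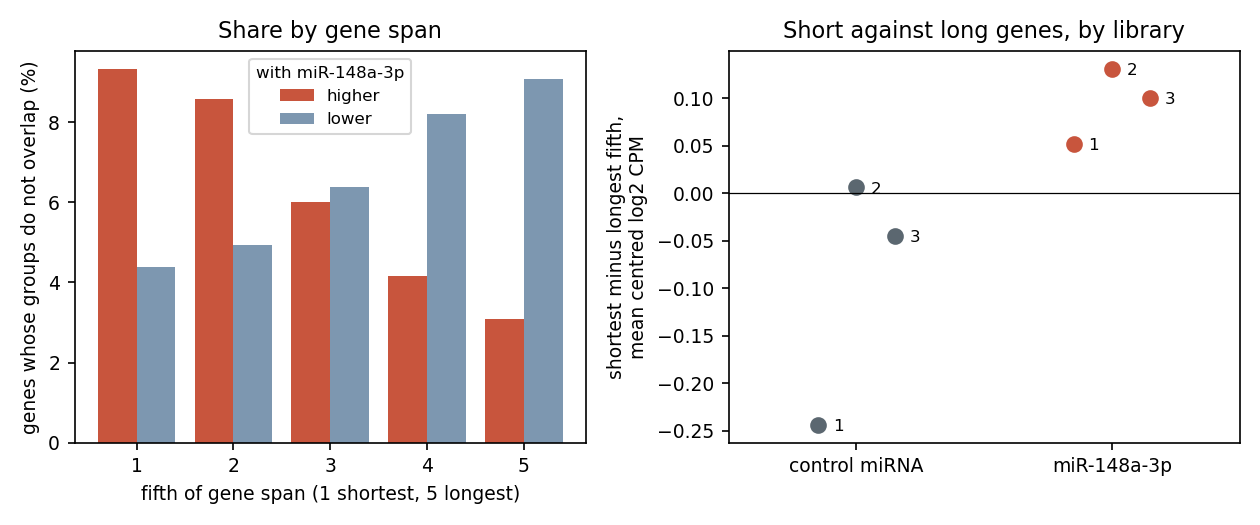
Left, the share of tested genes (%) whose treated libraries all lay above (red) or below (blue) the controls, in quintiles of gene span: it runs from 9.32% to 3.08% for higher and from 4.38% to 9.09% for lower. Right, the mean centred log2 CPM of the shortest quintile minus that of the longest in each library (numbers are replicates), between −0.24 and 0.0060 in the controls and between 0.05 and 0.13 with miR-148a-3p.

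The genes whose profile over the 6 libraries was most like each of the 4 were found by the smallest root mean square difference of centred log2 CPM. Profiles share their libraries and depth, and likeness to a gene chosen for a difference brings in genes with that difference. For METRN they included SLC9A3R2, a PDZ scaffold (difference 0.26, log2 fold change 1.32, SE 0.34), and EMP3 itself. For EMP3 they were RN7SL1, the RNA of the signal recognition particle (0.19, with 1.19, SE 0.37), METRN, and the kinetochore gene PMF1 (0.27, with 0.99, SE 0.39). For PITX1 they were the nuclear pore gene AAAS (0.07, with 1.17, SE 0.30), the tRNA modification gene YRDC (0.12, with 1.08, SE 0.41) and the DNA ligase LIG1 (0.13, with 1.02, SE 0.29). For CTSZ they were the 3' end cleavage factor CSTF2 (0.10, with 1.15, SE 0.36), the mitochondrial thioredoxin reductase TXNRD2 (0.10, with 0.93, SE 0.53) and the ubiquitin ligase gene RNF167 (0.13, with 0.92, SE 0.29). The median difference from all other tested genes was 0.93 for METRN, 0.91 for EMP3, 0.66 for PITX1 and 0.65 for CTSZ. The edgeR adjusted p of these named genes, leaving out METRN and EMP3, ran from 0.315 to 0.752. TXNRD2 had a control mean of 8.35 CPM, under the filter's level of 11.3 CPM, so the treated group helped to bring it in.

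Markers of cell types in which METRN, CTSZ and EMP3 are well known were few, or had ranges that overlapped between groups. Of 14 myeloid and blood markers, 5 were listed, with a sum of 1.87 to 7.86 CPM in the control libraries and 4.76 to 11.9 CPM with miR-148a-3p. PTPRC, CD14 and SPI1, which define these cells, were not listed in any library. Of 12 fibroblast and endothelial markers 6 were listed, at 58.2 to 88.9 and 55.8 to 96.8 CPM in sum, most of it COL1A1, with DCN, LUM and COL1A2 not listed. Of 11 glial and neuronal markers 6 were listed, at 166 to 204 and 140 to 172 CPM in sum, most of it MBP and TUBB3, while GFAP, S100B and SOX10 were not listed.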

How the data were processed

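Poly(A) 3' end libraries of DROSHA knockout HCT116 cells were used, 3 per group, made from 500 ng of total RNA per the labels' protocols. For every library the authors deposited whole-number read counts by gene symbol, not normalized. A symbol missing from a library's list was taken as 0. The submitters' processing notes name cutadapt, STAR, Bowtie2 and the build GRCh38, while for roles, versions, counting tool, annotation and strandedness nothing is given in the sources used here. A wild-type small RNA library was not used here.

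Counts were fitted with edgeR 4.0.16 in R 4.3.3 across all genes (TMM, filterByExpr, quasi-likelihood F test, group as the only term, Benjamini-Hochberg over 8921 genes, threshold 0.05). Values are TMM-normalised CPM, mean ± SD. A prior count of 2 was used for log2 profiles. The script was tested on simulated data. Within groups, pairs of libraries differed by 2.52 to 5.30 times Poisson variance. Same-numbered libraries did not share deviations throughout, so replicate numbers were not treated as pairs.

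The members and lists were chosen with earlier results of these data known. Genes named are the 4 genes, the closest relatives and up to 4 genes of smallest p in each list, genes in a list or near a member whose groups do not overlap (chosen after their values were seen), the nearest tested neighbours within 100 kb, rank neighbours, the 3 most alike profiles, called genes, DROSHA, and markers. Of 8921 tested symbols, 8912 matched a RefSeq gene (GRCh38.p14) and 7384 a promoter window. Alternatives were other size factors (DESeq2, upper quartile), DESeq2 1.42.0, limma-voom (limma 3.58.1), other filters, leaving out the 10 most abundant genes, a replicate block, thinning, each library left out, and a window of 250 kb. A few genes that this rule names are not reported here.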

Additional observations from a re-analysis of the deposited data

How the results depend on the processing

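The fitted log2 fold changes of METRN, PITX1, CTSZ and EMP3 stayed above 0 under all 15 alternatives and moved by less than 1 SD between replicates in each. The rule that chose the 4 genes all but fixed their sign in advance, so the sign gives no support. The SD was each gene's own, and the widest, 0.67 for EMP3, let its value fall from 1.52 to 0.92. For the 4 genes in that order, the values were as follows. Over the 9 that keep all libraries they were 1.62 to 1.71, 0.96 to 1.06, 0.98 to 1.14 and 1.26 to 1.54, and with 1 library left out 1.37 to 1.94, 0.91 to 1.29, 0.82 to 1.27 and 0.92 to 1.91. Over all genes, the count called higher was 7 and lower 11 without the filter on low counts (15659 genes tested), and with 1 library left out it was 0 to 4 higher and 1 to 22 lower, the highest without control replicate 1 and, without miR-148a-3p replicate 3, 2 lower. The count called lower was 2 with DESeq2, 3 with limma-voom, 3 with the replicate block and 3 after thinning; the cause was not tested. Genes of the 4 lists called stayed at 0 in each. With 1 library left out, list medians changed sign for the neurotrophic (−0.19 to 0.03), homeobox (−0.22 to 0.10), cathepsin (−0.12 to 0.04) and EMP3 lists (−0.12 to 0.01). A window of 250 kb gave a median of 0.22 over 30 neighbours, as did 100 kb over 22. For EMP3 alone, genes with all treated libraries above the controls went from 1 of 4 (median 0.25) to 4 of 8 (median 0.43). Of all tested genes 6.22% were of this kind, and 15.5% of those on chromosome 19. TMEM143, 1 of these EMP3 neighbours, was tested only through the treated group. Deviations of same-numbered libraries correlated at 0.13, 0.093 and −0.0018, and those of other pairs at −0.13 to 0.027. With the replicate block edgeR had 412 genes higher at an unadjusted p below 0.05, against 303 without it. Whether same-numbered libraries shared a batch was not tested. With 10 to 22 control reads per library, METRN and EMP3 are limited by depth.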
